A study of Mus musculus with 8 samples.

Results

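Signals of 10 receptor genes, through which blood progenitors sense growth factors, were followed across 4 groups of mouse pro-B cells that lack Ebf1. The genes were chosen by name: Il7r, Il2rg, Il2ra, Il2rb, Kit and Flt3 for the lymphoid and early progenitor receptors, and Csf1r, Csf2ra, Csf2rb and Csf3r for the colony-stimulating factor (CSF) receptors. These 10 genes, of 20125 named genes on the array, were read by 14 probes, since Csf1r had 3 probes and Flt3 and Csf2rb had 2 each. The probe with the highest mean stood for its gene, and the other probes are described beside it.

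All cells came from fetal liver progenitors of Ebf1-deficient mice, so every group lacked EBF1, a transcription factor needed for B-cell development. The pro-B(+) line, kept on OP9 stromal cells, had the potential to enter the T-cell lineage, and the pro-B(−) line, kept on TD7 thymic stromal cells, did not. Each was 1 line, so that potential, stromal cells and line cannot be told apart. The other groups were pro-B(−) cells given an empty vector, pro-B(−)/Mock, or an Lmo2 vector, pro-B(−)/LMO2. Both parental lines were maintained with stem cell factor, FLT3 ligand and IL-7, which are ligands of 3 of the receptors described here, and which stromal cells the transduced cells grew on is not given in the sources used here. Each group had 2 arrays. The titles do not say whether these were separate cultures. For the genes differing between the parental lines, the authors state 2 independent biological replicates, without saying how these were made. P-values measure the spread between the arrays of a group, which may be technical.

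Cytokine receptors of progenitors fall into 2 structural kinds. KIT, FLT3 and the CSF1 receptor are receptor tyrosine kinases that bind stem cell factor, FLT3 ligand and CSF1, whereas the other receptors have no kinase of their own and signal through associated JAK kinases and STAT transcription factors. IL-7 receptor α and the common γ chain form the receptor that lymphocyte precursors depend on, and the γ chain also joins the α and β chains of the IL-2 receptor, of which the α chain, CD25, is a well-known marker of early thymocytes. The CSF receptors serve macrophage and granulocyte production, and with KIT and FLT3 they are used to tell early, lymphoid and myeloid progenitors apart.

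Levels below are normalized log2 signals, on which 0 is the 75th percentile of all probes of that array, and a difference of 1 is a 2-fold change. Of the probes, 56.5% to 61.2% on each array exceeded background clearly, no spot was saturated, and the 2 arrays of a group were close (r = 0.999). Of the 10 receptor genes, 9 were well above background on all 8 arrays, the exception being Il2ra. A level compares the groups on the same probe and never a probe with another. Differences were tested with limma across all probes with Benjamini-Hochberg adjustment, and a gene was called at an adjusted p below 0.05. Both parental groups lay on slide and scan 1 and both transduced groups on slide and scan 2, so that the comparison of pro-B(+) with pro-B(−) and that of pro-B(−)/LMO2 with pro-B(−)/Mock were each made within a slide, while comparisons across these pairs cannot be told apart from slide and scan. In such bulk RNA, fewer cells of a type and less RNA per cell cannot be told apart.

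Lmo2 itself, the gene of the vector and an adaptor protein of haematopoietic transcription complexes, followed its labels. Its level was 2.09 and 2.10 in pro-B(+), 0.63 on both pro-B(−) arrays, 0.35 on both pro-B(−)/Mock arrays, and 0.99 and 0.93 in pro-B(−)/LMO2. Its parental difference was 1.46, pro-B(+) being the higher (adjusted p = 2.0e-06, limma) and the Lmo2 vector raised it by 0.61 over the empty vector (adjusted p = 3.8e-05, limma).

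**Figure D1:**
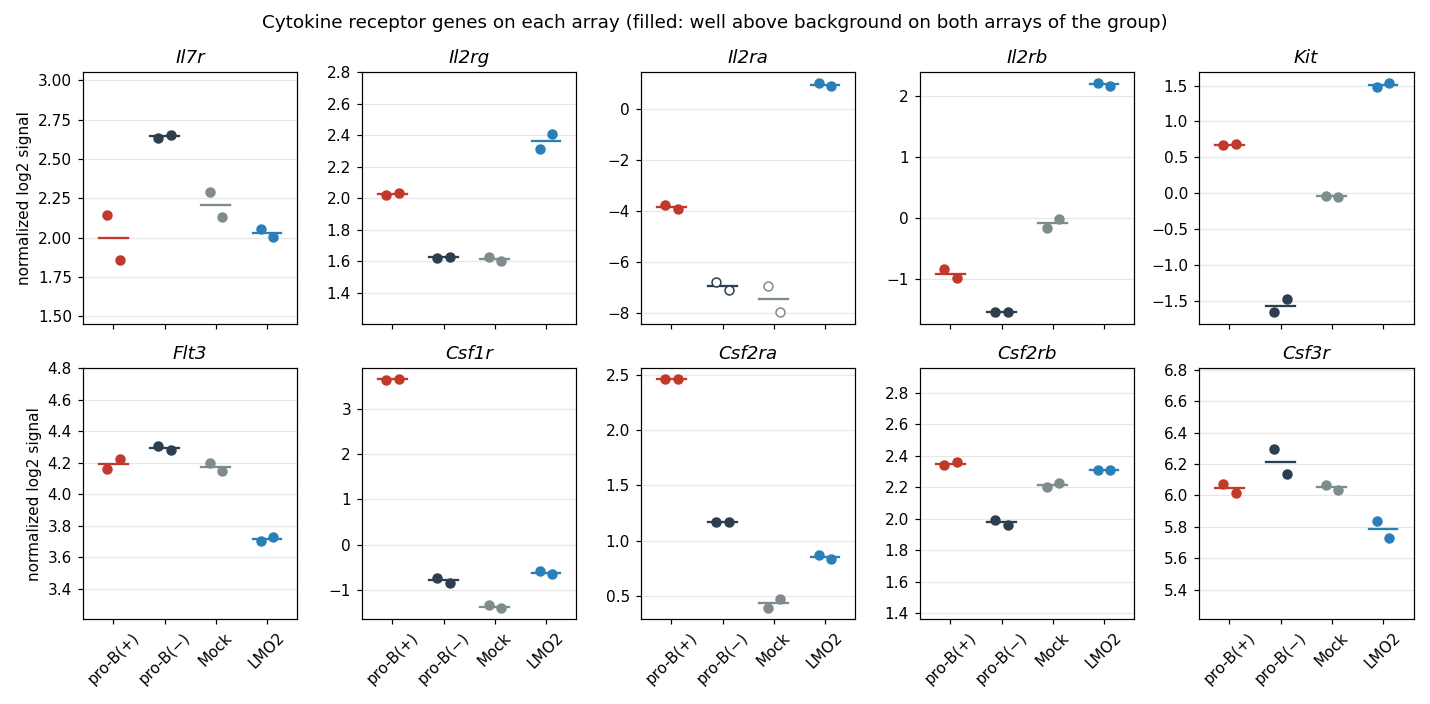
Normalized log2 signal (vertical axis, 0 is the 75th percentile of the array; the scale differs between panels) of the 10 receptor genes on the 2 arrays of each group, with Mock and LMO2 for the transduced pro-B(−) cells. Points are arrays, lines are group means, and open points mark groups not well above background; Csf1r and Csf2ra stood highest in pro-B(+), whereas Il2ra, Il2rb, Il2rg and Kit stood highest in pro-B(−)/LMO2.

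Between the parental lines, 8 of the 10 receptor genes were called, 7 of them higher and 1 lower in pro-B(+), beside 52.8% of all named genes called in either direction, 25.6% higher and 27.1% lower. With such a share of all genes called, sizes are given beside each call. Of the receptor genes, 4 (Il2ra, Kit, Csf1r and Csf2ra) were called and at least 2-fold higher in pro-B(+), beside 13% of all named genes that were called and at least 2-fold different in either direction. With the Lmo2 vector, 9 of the 10 were called, 7 higher and 2 lower than with the empty vector, beside 68.9% of all named genes, 31.1% higher and 37.8% lower. Of these 10 genes, 3 (Il2ra, Il2rb and Kit) were called and at least 2-fold higher. Of all named genes, 11.1% were called and at least 2-fold different in either direction. Read by its brightest probe, no CSF receptor changed 2-fold with Lmo2.

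The CSF1 receptor showed the largest parental difference of the 9 genes measured in all groups. Csf1r, the receptor for CSF1 and IL-34 that macrophages require, stood at 3.65 and 3.66 in pro-B(+), at −0.75 and −0.84 in pro-B(−), at −1.35 and −1.40 in pro-B(−)/Mock and at −0.59 and −0.66 in pro-B(−)/LMO2. Both pro-B(+) arrays were far above the other 6, which lay within a narrow band. The parental difference was 4.45 ± 0.05 (SE of the fit, 2 arrays against 2; adjusted p = 2.5e-07, limma). The Lmo2 vector raised Csf1r by 0.75 ± 0.05 (adjusted p = 5.9e-05, limma), a change significantly smaller than the parental difference, by 3.69 (adjusted p = 4.9e-06, limma). The other Csf1r probes gave the same direction with different sizes. One read the parental lines 5.20 ± 0.59 apart, with pro-B(−) above background on 1 of its 2 arrays, and the Lmo2 vector 1.23 ± 0.58 higher, which did not pass the test (adjusted p = 0.113, limma). The last read them 0.96 apart and the Lmo2 vector 0.20 higher, both called (adjusted p = 7.5e-05 and 0.025, limma).

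Csf2ra, the ligand-binding α chain of the GM-CSF receptor, was likewise highest in pro-B(+). Its pro-B(−) level stood above that of pro-B(−)/LMO2, the reverse of Csf1r, in a rank that crosses slides. It stood at 2.46 on both pro-B(+) arrays, at 1.17 on both pro-B(−) arrays, at 0.39 and 0.48 in pro-B(−)/Mock, and at 0.87 and 0.84 in pro-B(−)/LMO2. No groups overlapped, and all 3 pairs of neighbouring groups in the order differed. Csf2ra was higher in pro-B(+), with a parental difference of 1.29 ± 0.04 (adjusted p = 5.1e-06, limma) and rose by 0.42 ± 0.04 with the Lmo2 vector (adjusted p = 2.8e-04, limma), and these sizes differed by 0.87 (adjusted p = 1.5e-04, limma).

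Csf2rb, the signalling β chain that GM-CSF shares with IL-3 and IL-5, varied little. Its level was 2.34 and 2.36 in pro-B(+), 2.00 and 1.96 in pro-B(−), 2.20 and 2.23 in pro-B(−)/Mock, and 2.31 on both pro-B(−)/LMO2 arrays. The pro-B(−) arrays were lowest, and the whole range of group means was 0.37. The parental difference of 0.37 (adjusted p = 3.1e-04, limma) fell to 0.09 when arrays were scaled to their medians (adjusted p = 0.066, limma). The Lmo2 difference of 0.09 (adjusted p = 0.047, limma) was kept in 4 of 18 other settings and lost with any 1 of the 8 arrays left out (adjusted p = 0.055 to 0.169, limma), and it was −0.12 after median scaling (adjusted p = 0.030, limma). The dimmer Csf2rb probe was 0.23 higher in pro-B(+) and 0.22 higher with Lmo2 (adjusted p = 0.016 and 0.012, limma). Csf2rb2, a near-identical copy of Csf2rb that encodes the IL-3-specific β chain of mice, was 1.04 higher in pro-B(+) (adjusted p = 1.0e-05, limma) and differed by −0.09 between the Lmo2 and empty vectors (adjusted p = 0.096, limma). Its dimmer probe gave a smaller parental difference of 0.40 (adjusted p = 3.3e-04, limma) and −0.03 with Lmo2 (adjusted p = 0.442, limma). RNA of the copies can hybridise to each other's probes, and how far it did is uncertain.

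Csf3r, the receptor for granulocyte colony-stimulating factor, varied over a range of 0.43 in its group means. It stood at 6.08 and 6.02 in pro-B(+), at 6.29 and 6.14 in pro-B(−), at 6.07 and 6.04 in pro-B(−)/Mock, and at 5.84 and 5.73 in pro-B(−)/LMO2. Its arrays were lowest with the Lmo2 vector, opposite in direction to Csf1r and Csf2ra. The parental difference was −0.17 ± 0.07 and did not pass (adjusted p = 0.086, limma), but it passed without pro-B(−) replicate 2 (−0.25, adjusted p = 0.040, limma) and after median scaling (−0.45, adjusted p = 0.0021, limma). The same difference also passed with the replicate block and with an intensity trend (adjusted p = 0.034 and 0.044, limma). The Lmo2 difference of −0.27 ± 0.07 passed (adjusted p = 0.014, limma) and was −0.09 after quantile normalization (adjusted p = 0.160, limma). It also missed the threshold without pro-B(−)/LMO2 replicate 2 (−0.21) or without pro-B(−)/Mock replicate 1 (−0.25) or 2 (−0.29), with adjusted p = 0.074, 0.068 and 0.051 in turn (limma).

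The IL-2 receptor chains moved in the same direction as Csf1r and Csf2ra within each slide, but had their highest levels in pro-B(−)/LMO2, a rank over pro-B(+) that crosses slides. Il2ra, which encodes CD25, stood at 1.01 and 0.91 there and at −3.75 and −3.91 in pro-B(+). It was not well above background on any pro-B(−) or pro-B(−)/Mock array, where it read −6.78 and −7.09, and −6.93 and −7.95. The Lmo2 arrays were thus clearly above all 6 others, and the pro-B(+) arrays were dim but measurable. Against the lowest signal that could be called above background, Il2ra rose at least 134-fold with Lmo2 over the empty vector (fitted log2 change 8.41, adjusted p = 9.8e-06, limma) and pro-B(+) exceeded pro-B(−) at least 3.93-fold (fitted log2 change 3.10, adjusted p = 6.9e-04, limma). Such a bound takes the mean of the bright group over the mean, per array, of the lowest signal well above background or the gene's own signal, whichever was higher. Both bounds hold for the scaling used here. After normexp, which adds 50 to each signal before the logarithm, the fitted log2 changes were 4.45 with Lmo2 and 0.66 between the parental lines, below both bounds. Since neither pro-B(−) nor pro-B(−)/Mock was measured, the sizes of the Il2ra differences cannot be ordered.

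Il2rb, the β chain that IL-2 and IL-15 share, was measured in all groups. It stood at −0.84 and −0.98 in pro-B(+), at −1.55 and −1.54 in pro-B(−), at −0.17 and −0.01 in pro-B(−)/Mock, and at 2.22 and 2.18 in pro-B(−)/LMO2. The 4 groups did not overlap and each pair of neighbours differed, the Lmo2 arrays standing well apart. It was 2.29 ± 0.07 higher with the Lmo2 vector (adjusted p = 4.2e-06, limma) and its parental difference was 0.63 ± 0.07, pro-B(+) being the higher (adjusted p = 8.7e-04, limma), and the Lmo2 change was the larger by 1.65 (adjusted p = 1.2e-04, limma). Il2rb was also 1.45 higher in pro-B(−)/Mock than in the untransduced pro-B(−) cells (adjusted p = 3.6e-05, limma), a difference that cannot be told apart from slide and scan.

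Il2rg, the γ chain shared by the receptors for IL-2, IL-4, IL-7, IL-9, IL-15 and IL-21, moved less. Its level was 2.02 and 2.03 in pro-B(+), 1.62 and 1.63 in pro-B(−), 1.62 and 1.60 in pro-B(−)/Mock, and 2.31 and 2.41 in pro-B(−)/LMO2. The pro-B(−) and pro-B(−)/Mock arrays overlapped, with the pro-B(+) arrays above them and the Lmo2 arrays highest. The Lmo2 change was 0.75 ± 0.04 (adjusted p = 3.6e-05, limma) and the parental difference 0.40 ± 0.04 (adjusted p = 6.5e-04, limma), significantly less, by 0.35 (adjusted p = 0.0047, limma). After median scaling the parental difference was 0.12 and no longer passed (adjusted p = 0.061, limma).

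Il7r, the α chain of the IL-7 receptor, was the exception among the lymphoid chains, since it was highest in pro-B(−). It stood at 2.14 and 1.86 in pro-B(+), at 2.64 and 2.65 in pro-B(−), at 2.29 and 2.13 in pro-B(−)/Mock, and at 2.05 and 2.00 in pro-B(−)/LMO2. Only the untransduced pro-B(−) arrays were apart from the rest, and the pro-B(+) arrays spanned those of pro-B(−)/LMO2. Il7r was lower in pro-B(+), 1.56-fold below the pro-B(−) mean (log2 −0.64 ± 0.10, adjusted p = 0.0038, limma). The Lmo2 difference was −0.18 ± 0.10 (adjusted p = 0.174, limma), and it was −0.39 after median scaling (adjusted p = 0.025, limma).

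Kit, the receptor for stem cell factor and a marker of early progenitors, rose in both comparisons. Its level was 0.67 and 0.68 in pro-B(+), −1.65 and −1.47 in pro-B(−), −0.03 and −0.04 in pro-B(−)/Mock, and 1.48 and 1.53 in pro-B(−)/LMO2. No groups overlapped, and the highest arrays were those with the Lmo2 vector. Kit differed by 2.24 ± 0.06 between the parental lines (adjusted p = 3.4e-06, limma) and by 1.55 ± 0.06 between the Lmo2 and empty vectors (adjusted p = 1.1e-05, limma), the parental difference being the larger by 0.69 (adjusted p = 0.0016, limma). The empty-vector cells were 1.52 above untransduced pro-B(−) cells (adjusted p = 2.1e-05, limma), across the slides.

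Flt3, the receptor for FLT3 ligand on early lymphoid and myeloid progenitors, fell with Lmo2. Its brighter probe read 4.16 and 4.23 in pro-B(+), 4.30 and 4.28 in pro-B(−), 4.20 and 4.15 in pro-B(−)/Mock, and 3.70 and 3.73 in pro-B(−)/LMO2. The Lmo2 arrays were below the other 6. The change with Lmo2 was −0.46 ± 0.04 (adjusted p = 1.8e-04, limma) and the dimmer probe gave −0.31 (adjusted p = 3.1e-04, limma). Between the parental lines the brighter probe differed by −0.10 ± 0.04 (adjusted p = 0.086, limma), whereas the dimmer probe was called lower by 0.22 on the log2 scale (−0.22, adjusted p = 0.0021, limma), and with median scaling the brighter probe was called too (−0.38, adjusted p = 3.1e-04, limma).

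**Figure D2:**
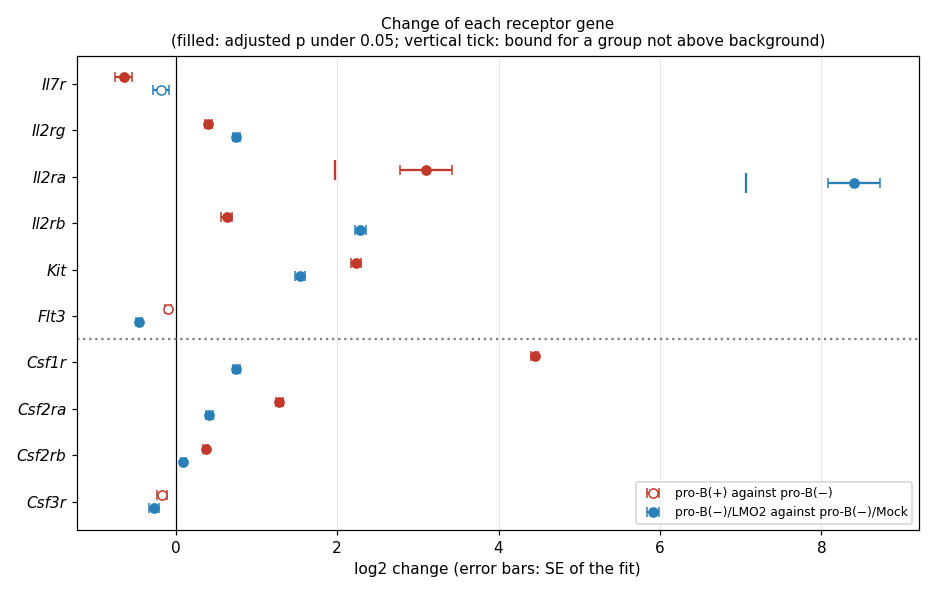
Log2 change (horizontal axis) of each receptor gene between the parental lines (red) and with the Lmo2 vector (blue); points are fitted changes, bars their SE, filled points had an adjusted p below 0.05, and vertical ticks on the Il2ra row mark the bounds of 3.93-fold and 134-fold. The dotted line parts the lymphoid and early receptors (above) from the CSF receptors (below); Csf1r reached 4.45 between the parental lines and 0.75 with Lmo2, and Il2rb 0.63 and 2.29.

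**Figure D3:**
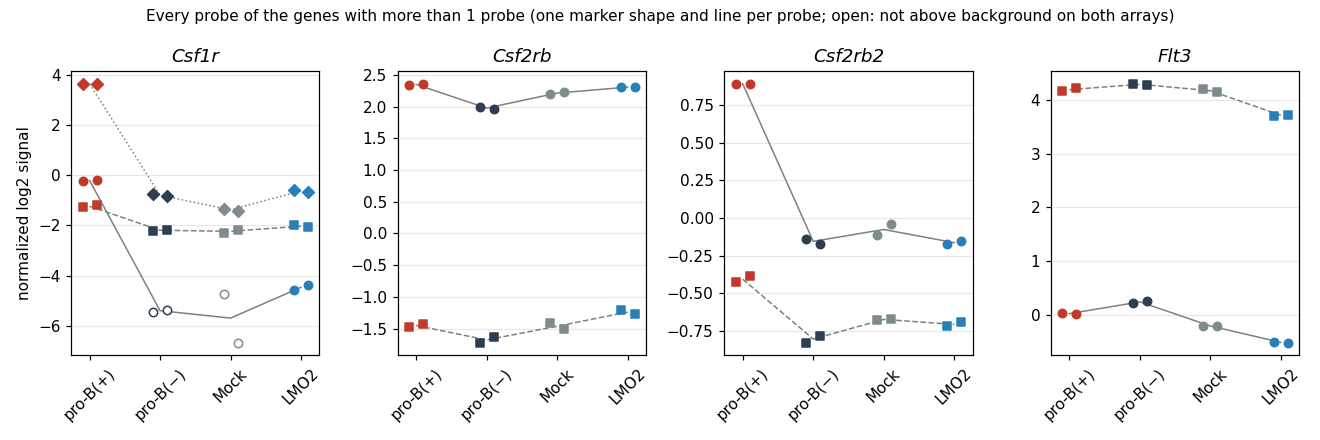
Normalized log2 signal (vertical axis) on the 2 arrays of each group for every probe of Csf1r, Csf2rb, its copy Csf2rb2 and Flt3; each marker shape is a probe, grey lines join group means, and open points mark groups above background on fewer than 2 arrays. All 3 Csf1r probes were highest in pro-B(+), and both Flt3 probes were lowest in pro-B(−)/LMO2.

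The 6 lymphoid and early receptors and the 4 CSF receptors each held differences of either sign, and no difference between these short lists was tested. In the parental comparison 4 of 6 lymphoid and early genes were called higher and 1 lower, with a median change of 0.52, and 3 of 4 CSF receptors were called higher, with a median of 0.83, beside a median of −0.01 over all named genes tested. With Lmo2, 4 of 6 lymphoid and early genes rose and 1 fell, with a median of 1.15, and 3 of 4 CSF receptors rose and 1 fell, with a median of 0.25, beside −0.03. These medians do not change with Il2ra set at its bounds.

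The test of the difference between the 2 effects passed for 9 of the 10 genes, beside 58.8% of all named genes. Il2ra was 1 of the 9, but its fitted values rest on groups below background and show no order of sizes. For Il2rg and Il2rb the Lmo2 change was the larger, and for Kit, Csf1r, Csf2ra and Csf2rb the parental difference was. The Csf2rb result did not hold on its dimmer probe (0.00, adjusted p = 0.968, limma). The fall of Flt3 with Lmo2 exceeded its parental difference by 0.36 (adjusted p = 0.0032, limma), which the dimmer probe did not reach (0.09, adjusted p = 0.138, limma). Il7r, whose parental fall was the larger, passed narrowly (−0.47, adjusted p = 0.042, limma) and missed the threshold in 8 of 18 other settings, among them the removal of pro-B(+) replicate 2 (adjusted p = 0.061, limma), of pro-B(−)/Mock replicate 2 (adjusted p = 0.119, limma), of either pro-B(−) array (adjusted p = 0.095 and 0.105, limma) or of either pro-B(−)/LMO2 array (adjusted p = 0.113 and 0.083, limma). Csf3r did not pass (0.10, adjusted p = 0.420, limma).

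Compared directly with pro-B(+), the Lmo2 cells were called higher in Il2rg (0.33), Il2ra (4.79), Il2rb (3.11) and Kit (0.83), and lower in Flt3 (−0.48), Csf1r (−4.28), Csf2ra (−1.60) and Csf3r (−0.26). That makes 8 of 10 genes, beside 78% of all named genes called, and these differences cannot be told apart from slide and scan. Il7r differed by 0.03 (adjusted p = 0.805, limma) and Csf2rb by −0.04 (adjusted p = 0.269, limma). The Csf3r difference was lost after median scaling (−0.17, adjusted p = 0.083, limma), without pro-B(+) replicate 1 (−0.23, adjusted p = 0.069, limma) or without pro-B(−)/LMO2 replicate 2 (−0.21, adjusted p = 0.072, limma).

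Between the empty-vector cells and untransduced pro-B(−) cells, 7 of the 9 genes tested were called, beside 60.8% of all named genes, again across slides. Kit, Il2rb and Csf2rb (0.24) were higher and Il7r (−0.44), Flt3 (−0.12), Csf1r (−0.58) and Csf2ra (−0.74) lower. The Il7r call was lost without pro-B(−)/Mock replicate 2 (−0.36, adjusted p = 0.075, limma) or without pro-B(−) replicate 1 (−0.44, adjusted p = 0.052, limma) or 2 (−0.43, adjusted p = 0.063, limma). The Flt3 call was lost in 12 of 18 other settings, among them the removal of any 1 array of pro-B(−), pro-B(−)/Mock or pro-B(−)/LMO2 (−0.14 to −0.09, adjusted p = 0.067 to 0.186, limma), and the Csf1r call when its probes were averaged (−0.31, adjusted p = 0.221, limma). Il2rg differed by −0.01 (adjusted p = 0.813, limma) and Csf3r by −0.16 (adjusted p = 0.081, limma), the latter passing in 4 other settings, namely without pro-B(−) replicate 2 (−0.24, adjusted p = 0.036, limma), after quantile normalization (−0.25, adjusted p = 0.0058, limma), with the replicate block (adjusted p = 0.031, limma) and with an intensity trend (adjusted p = 0.043, limma). Over all 10 genes, 21 of the 30 pairs of neighbouring groups in the order of levels differed and 8 did not pass. The last, Il2ra between its unmeasured groups, was not tested. No such share was computed over all named genes, of which single comparisons above called 52.8% to 78%. Pairs of a parental with a transduced group also cannot be told apart from slide and scan. The neighbours that did not pass lay in Il7r, Il2rg, Flt3, Csf2rb and Csf3r.

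Stretches of 30 bases upstream of 3 receptor genes are shown because they hold the letters GAGGAA, the core read by PU.1, a transcription factor of myeloid and lymphoid progenitors. The sequences are from RefSeq promoters of build GRCm38.p6, read 5′ to 3′ on the strand of the gene, with GAGGAA in capitals. The Kit stretch lies at chr5:75574752-75574781 on the + strand, that of Csf2ra at chr19:61228419-61228448 on the − strand, and that of Csf3r at chr4:126024561-126024590 on the + strand.
Kit: ggagagtgctagGAGGAAgaggatccaggg
Csf2ra: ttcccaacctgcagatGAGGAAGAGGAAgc
Csf3r: cctccttcctgaGAGGAAggggctgtctat
The letters begin 223 bases before the start of Kit, 14 and 8 bases before that of Csf2ra, where 2 matches follow each other without overlap, and 86 bases before that of Csf3r.

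Promoters were listed for 7 of the 10 genes, and Csf1r, Il2rb and Csf2rb, which had none listed, were not searched. Searched on both strands over 250 bases before to 50 after the start, GAGGAA was in 3 of 7, beside 28.3% of 32851 promoters. CANNTG, the E-box read by E proteins, was in 4 of 7 (Kit, Flt3, Il7r and Csf2ra), beside 72.3%, and AGATAA, read by GATA factors, was in 0 of 7, beside 11.2%. A match is a description of letters and not a bound site. Of the 3 genes with GAGGAA, Kit and Csf2ra rose in both comparisons, and Csf3r differed by −0.17 and −0.27. Spi1, which encodes PU.1, was 0.54 higher in pro-B(+) (adjusted p = 1.3e-04, limma) and 0.35 higher with Lmo2 (adjusted p = 4.7e-04, limma). A link between PU.1 and the levels of these genes was not tested.

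The ligands of the receptors were mostly not measured in the cells. Of 15 ligand genes on the array, 8 were well above background on no array, namely Il7, Il4, Il9, Il21, Tslp, Csf3, Il3 and Il5. Flt3l, the ligand of FLT3, stood at −0.67 and −0.55 in pro-B(+), −0.60 and −0.58 in pro-B(−), −0.52 and −0.51 in pro-B(−)/Mock, and 1.40 and 1.42 in pro-B(−)/LMO2. Its Lmo2 arrays were clearly above the other 6, a change of 1.93 (adjusted p = 1.9e-06, limma) in the cells in which Flt3 itself was lowest. Csf1, a ligand of the CSF1 receptor, was 0.86 higher in pro-B(+) (adjusted p = 1.1e-05, limma) and 0.75 higher with Lmo2 (adjusted p = 1.6e-05, limma). Il34, the other ligand of that receptor, exceeded its pro-B(−) level at least 1.63-fold in pro-B(+) and was 1.13 higher on the log2 scale with Lmo2 (adjusted p = 0.016 and 0.0041, limma). Kitl, which encodes stem cell factor, differed by 0.87 and 0.65, neither of which passed (adjusted p = 0.121 and 0.194, limma). Csf2, which encodes GM-CSF, differed by −0.19 with Lmo2 (adjusted p = 0.083, limma) and could not be tested between the parental lines.

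Other receptor chains of the same family were more often higher than lower. In the parental comparison 7 of 12 chains tested were called higher and none lower, with a median change of 0.55, beside 25.6% of all named genes higher and 27.1% lower and their median of −0.01. With Lmo2 9 of 13 were higher and 1 lower, with a median of 0.34, beside 31.1% and 37.8% and a median of −0.03. Il6ra, the α chain of the IL-6 receptor, was 3.98 higher in pro-B(+) and 2.20 higher with Lmo2 (adjusted p = 4.1e-07 and 1.9e-06, limma). Il4ra, the α chain of the IL-4 receptor and a partner of the γ chain, was 2.28 and 1.57 higher (adjusted p = 5.7e-07 and 1.6e-06, limma). Ifngr2, a chain of the interferon γ receptor, was 1.08 higher in pro-B(+) (adjusted p = 3.0e-05, limma) and differed by 0.14 with Lmo2 (adjusted p = 0.058, and 0.036 with the replicate block, limma). Il9r, another partner of the γ chain, was above background in pro-B(−)/LMO2 alone on the probe that stood for it. There it was at least 1.68-fold higher than with the empty vector (fitted log2 change 2.88, adjusted p = 3.6e-05, limma). The other Il9r probe was not above background in any group, reading −6.53 and −8.51 in pro-B(−)/LMO2, so that detection of Il9r rests on a single probe. Il6st, the signalling chain of the IL-6 receptor, fell with Lmo2 (−0.34, adjusted p = 0.0027, limma).

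The signal transducers below the receptors were described in the same way. Of 18 transducer genes tested between the parental lines, 3 were called higher and 6 lower in pro-B(+), with a median of −0.08, beside 25.6% and 27.1% of all named genes and their median of −0.01. Of 19 tested with Lmo2, 13 were higher and 2 lower, with a median of 0.58, beside 31.1% and 37.8% and a median of −0.03. Jak3, the kinase that binds the γ chain, stood at −0.28 and −0.23 in pro-B(+), 0.32 on both pro-B(−) arrays, 0.78 and 0.67 in pro-B(−)/Mock, and 1.73 and 1.66 in pro-B(−)/LMO2. It was thus lowest in pro-B(+) (−0.57, adjusted p = 4.0e-04, limma) and highest with Lmo2 (0.97, adjusted p = 3.3e-05, limma). Stat5b, a transcription factor activated by IL-7 and IL-2, was also lower in pro-B(+) and higher with Lmo2 (−0.21 and 0.33, adjusted p = 0.0047 and 4.5e-04, limma). Its dimmer probe had means of 1.05 in pro-B(+), 1.15 in pro-B(−), 1.06 in pro-B(−)/Mock and 1.48 in pro-B(−)/LMO2. Stat6, the factor activated by IL-4, was higher in both comparisons, by 0.25 and 0.67 (adjusted p = 0.022 and 2.5e-04, limma). After median scaling the parental value of Stat6 was −0.04.

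Among negative regulators, Ptpn6, the phosphatase SHP-1, was 0.53 and 0.58 higher in the parental and Lmo2 comparisons (adjusted p = 1.5e-04 and 6.8e-05, limma), and Sh2b3, the adaptor LNK, differed by 0.29 and −0.41 (adjusted p = 0.0020 and 2.9e-04, limma). Of the transducers that mostly promote signalling, Ptpn11, the phosphatase SHP-2, was lower in both, by −0.57 and −0.13 (adjusted p = 1.1e-04 and 0.027, limma), the second value being 0.08 after quantile normalization. Gab2, a docking protein, rose with Lmo2 by 1.04 (adjusted p = 0.011, limma), being above background on 1 of the 2 pro-B(−)/Mock arrays.

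Genes that cytokine signalling is known to induce, and its feedback inhibitors, were described as a further list of 12. Between the parental lines 4 were called higher and 5 lower in pro-B(+), with a median of −0.04, and with Lmo2 10 were higher and 2 lower, with a median of 0.54, beside the same shares and medians of all named genes. Cish, a feedback inhibitor induced by STAT5, stood at 0.93 and 0.98 in pro-B(+), 0.88 and 0.91 in pro-B(−), 1.52 and 1.49 in pro-B(−)/Mock, and 2.48 on both pro-B(−)/LMO2 arrays. It rose by 0.98 with Lmo2 (adjusted p = 7.7e-06, limma), while the parental difference was 0.06 (adjusted p = 0.205, limma) and −0.22 after median scaling (adjusted p = 0.0018, limma). Bcl2, the survival gene, was lower in pro-B(+) (−0.66, adjusted p = 2.9e-05, limma) and higher with Lmo2 (0.98, adjusted p = 5.6e-06, limma). Socs1, an inhibitor of JAK kinases, moved likewise (−0.66 and 0.50, adjusted p = 5.6e-05 and 1.1e-04, limma), as did Osm, the cytokine oncostatin M (−1.18 and 0.91, adjusted p = 2.9e-05 and 5.6e-05, limma).

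Socs3, an inhibitor of signalling through the IL-6 and G-CSF receptors, rose in both comparisons, by 0.56 and 1.77 (adjusted p = 6.0e-04 and 5.1e-06, limma). Ccnd2, which encodes cyclin D2, was 0.56 and 0.89 higher (adjusted p = 1.3e-04 and 1.7e-05, limma), and Myc 0.27 and 0.26 higher (adjusted p = 0.0075 and 0.0054, limma), with a parental value of −0.01 after median scaling. Socs2 (−0.63 and −0.57, adjusted p = 4.3e-04 and 3.7e-04, limma) and Ccnd3, which encodes cyclin D3 (−0.38 in both, adjusted p = 0.0010 and 5.5e-04, limma), were lower in both.

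**Figure D4:**
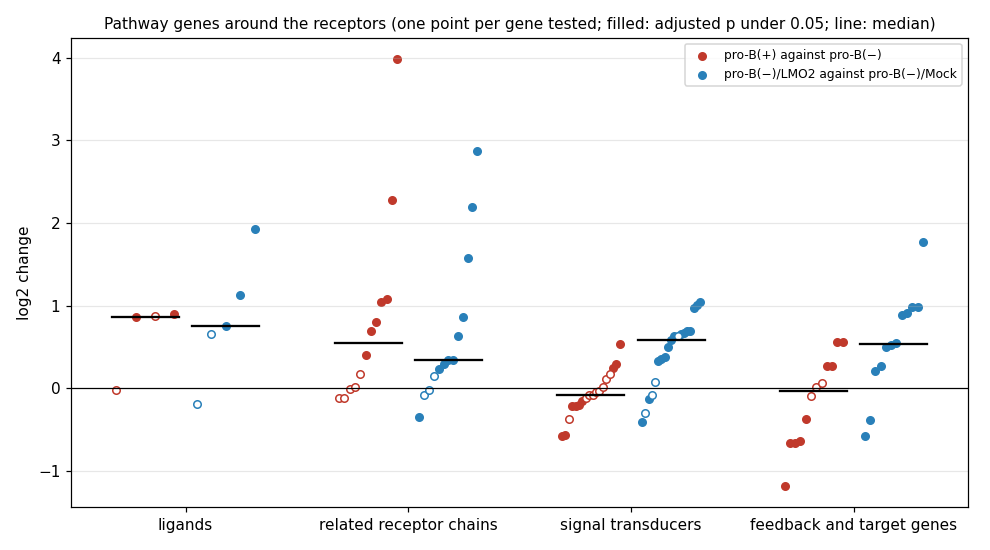
Log2 change (vertical axis) of pathway genes around the receptors in 4 lists, between the parental lines (red) and with the Lmo2 vector (blue). Each point is a gene tested, filled where the adjusted p was below 0.05, and black lines are medians, which for signal transducers were −0.08 and 0.58 and for feedback and target genes −0.04 and 0.54.

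Markers of other cells moved with some of these results, and their counts stand beside the same shares of all named genes. A summed level adds signals of different probes, so the part that a gene holds of it also depends on its probe. Beside the higher Csf1r and Csf2ra of pro-B(+), 14 of 16 myeloid markers tested were called higher and 1 lower there, with a median change of 3.04. The summed level of the myeloid list, in units of the 75th percentile, was 51.8 to 52.8 in pro-B(+), 10.2 to 11.03 in pro-B(−), 11.6 to 11.98 in pro-B(−)/Mock and 27.0 to 28.3 in pro-B(−)/LMO2. S100a8 and S100a9, abundant proteins of neutrophils and monocytes, were above background in pro-B(+) alone, whereas Itgam, the integrin CD11b, differed by −0.14 (adjusted p = 0.266, limma). With Lmo2, 8 of 14 myeloid markers tested rose and 2 fell, and Mpo, the granule enzyme myeloperoxidase, reached a mean of 3.97, against 4.01 in pro-B(+). Without Mpo the list summed to 35.8 to 36.6 in pro-B(+), 8.70 to 9.56 in pro-B(−), 10.8 to 11.2 in pro-B(−)/Mock and 11.7 to 12.3 in pro-B(−)/LMO2, so that Mpo held most of its difference with Lmo2. The part of myeloid cells in the CSF receptor values was not tested.

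Beside the higher Kit, mast cell and basophil markers rose in both comparisons, 3 of 5 and 3 of 4 tested, with 1 lower in the first. Cpa3, a mast cell protease also found in progenitors, exceeded its pro-B(−) level at least 3.97-fold in pro-B(+) and rose at least 12.1-fold with Lmo2, while Ms4a2, the β chain of the IgE receptor, was above background on no array. The list's summed level was 0.57 to 0.60 in pro-B(+), 0.53 to 0.55 in pro-B(−), 0.66 to 0.68 in pro-B(−)/Mock and 0.987 to 1.0 in pro-B(−)/LMO2, and without Tpsb2, a mast cell tryptase, it was 0.21 to 0.22, 0.085 to 0.099, 0.037 to 0.057 and 0.336 to 0.337 in turn. Beside the IL-2 receptor chains, 8 of 12 T and NK cell markers tested were higher and 2 lower in pro-B(+), and 7 of 12 were higher and 3 lower with Lmo2. Klrd1, the NK receptor CD94, was 4.20 and 5.17 higher, and Ncr1, a defining NK receptor, was above background on no array. The summed level of that list was 28.2 to 28.9 in pro-B(+), 37.1 to 39.3 in pro-B(−), 50.7 to 50.8 in pro-B(−)/Mock and 46.6 to 47.1 in pro-B(−)/LMO2. Thy1, a surface protein of T cells, held most of it and was lower in both comparisons (−0.995 and −0.86, adjusted p = 1.7e-05 and 2.4e-05, limma). Without Thy1 the sums were 11.45 to 11.47, 3.93 to 4.17, 5.68 to 5.75 and 21.9 to 22.2 in turn, higher in the same groups as Il2ra in both comparisons. The part of these cells was not tested.

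Stromal markers bear on ligands and receptors that stromal cells can also make. All 11 stromal markers tested stood above their pro-B(−) level in pro-B(+), with a median of 1.41. With Lmo2 6 of 13 were higher and 2 lower, with a median of 0.16. Their summed level was 12.9 to 13.5 in pro-B(+), 4.84 to 4.998 in pro-B(−), 10.2 to 10.3 in pro-B(−)/Mock and 14.5 to 15.5 in pro-B(−)/LMO2, so that it was higher in the same group as Csf1 and Il34 in both comparisons. Without Sparc the sums were 8.93 to 9.35, 3.42 to 3.59, 7.08 to 7.27 and 9.43 to 9.94 in turn. Col5a2, Dcn and Lum were above background on no array, and the part of stromal RNA was not tested. Among the B-lineage markers, Ms4a1, a marker of later B-cell development, was above background on no array. Of the B-lineage list, 2 of 11 genes tested were higher and 6 lower in pro-B(+), and 3 of 10 were higher and 5 lower with Lmo2. Dntt, which encodes the terminal transferase of lymphoid precursors, made up 20.5 to 20.99 of that list's summed level in pro-B(−)/LMO2, and the other genes summed to 5.35 to 5.45 there against 6.08 to 6.93 on the other 6 arrays. Erythroid and megakaryocyte markers were higher for 3 of 6 tested in pro-B(+) and for 5 of 5 with Lmo2. Epor of that list also stood among the related receptor chains above.

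**Figure D5:**
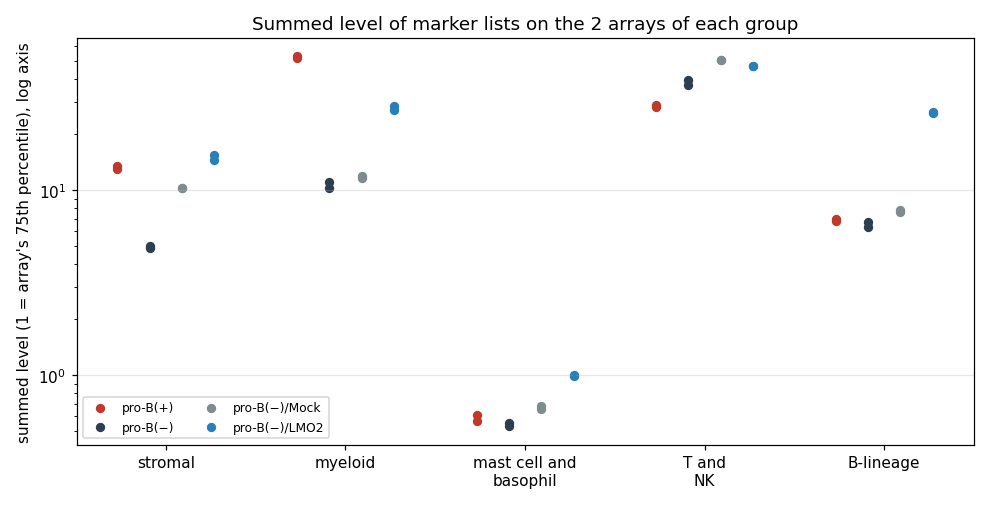
Summed level (vertical log axis, 1 is the 75th percentile of the array) of 5 marker lists on the 2 arrays of each group; points are arrays. The myeloid list was highest in pro-B(+), at 51.8 to 52.8, and the B-lineage list in pro-B(−)/LMO2, where it held 25.95 to 26.3 against 6.33 to 7.84 on the other 6 arrays; without Dntt it was lowest there, at 5.35 to 5.45, and Thy1 held most of the T and NK sum.

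For the 5 receptor genes whose group means spanned at least 2-fold, the genes with the most similar pattern were sought by the root mean square difference of their centred levels over the 8 arrays, among genes above background in the same groups. Csf1r was followed most closely by Rab32, Pira2 and Slc16a3 (0.21, 0.29 and 0.42, of 11641 genes), and Csf2ra by Anxa5, Gstm3 and Pld6 (0.083, 0.099 and 0.12). Kit was nearest to Tmem140, Calm4 and Tmcc3 (0.15, 0.18 and 0.19), and Il2rb to H2ac18, Tnfsf8 and Gbp9 (0.14, 0.14 and 0.16). Il2ra, whose levels in pro-B(−) and pro-B(−)/Mock are not measured, was nearest to Pilrb1, Tcf7 and Skint3 of 143 genes with the same detection (0.60, 0.79 and 0.84). Tcf7, a transcription factor of early T cells, had means of −2.89 in pro-B(+) and 1.80 in pro-B(−)/LMO2 and was not well above background in the other groups.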

How the data were processed

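Total RNA of 8 samples, 2 in each of 4 groups, was hybridised to one-colour Agilent mouse arrays. The deposited spot intensity came from Agilent Feature Extraction 11.5.1.1, per the file headers, already background subtracted and detrended. The authors also deposited log2 values after 75th percentile normalization, which equal log2 of the processed intensity minus 1 constant per array and served as an alternative.

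Control and outlier spots were left out, spots of a probe averaged, and log2 processed intensity reduced by the array's 75th percentile. Of 39429 probes, 51 had no spot left on some array and 39378 were analysed. Accessions named 26550 probes (67.4%) through a RefSeq table of assembly GRCm38.p6, whose promoters also gave the sequences. The number of arrays limits precision, with 4 residual degrees of freedom. An exact permutation test of 2 arrays against 2 cannot go below 0.333, so tests were made across all probes with limma 3.58.1 in R 4.3.3 (group means, all arrays, empirical Bayes, Benjamini-Hochberg), on probes that cleared background on both arrays of a group compared. The procedure was tested on simulated data. Members, lists and tests were chosen with earlier results of these data known. All receptor genes were named, and pathway genes by a rule: ligands above background on both arrays of a group, Csf2rb2, and up to 3 called genes with the largest change in each direction per list. Some genes of the lists are not reported here by name. Equal replicate numbers did not mark paired samples (correlation of deviations −0.027 to 0.051). Alternatives were median, quantile and normexp scaling (offset 50), the deposited matrix, other filters, the mean of all probes, the arrays compared alone, an intensity trend, a replicate block and leaving out each array. The use of the median spot signal for normexp, some settings for pathway genes and the order of groups, and marker sums without the most abundant gene, were chosen after seeing the data.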

Additional observations from a re-analysis of the deposited data

How the results depend on the processing

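The number of receptor genes called stayed within 1.5 times its value under each of 18 alternatives. Between the parental lines it was 8 (8 to 9 with an array left out, 7 to 10 otherwise), with Lmo2 9 (7 to 8; 8 to 10), for empty vector against untransduced cells 7 (5 to 7; 6 to 8), for Lmo2 cells against pro-B(+) 8 (7 to 8; 7 to 8) and for the difference of effects 9 (8 to 9; 8 to 9). Neighbouring groups that differed numbered 21 (19 to 20; 19 to 23), and pathway genes called 27 (23 to 27; 25 to 36) and 40 (35 to 41; 36 to 43). The replicate block gave 9, 8, 7, 8 and 9 receptor genes, 21 pairs, and 27 and 41 pathway genes. No paired samples are known, and the replicate block moved no count by over 1.5 times. Of 49 receptor gene results, 32 kept direction and side of the threshold under every alternative that gave a value. Il2ra had no value for its first 2 comparisons when each array had to be above background.

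Median scaling moved the median of all probes from −0.04 to −0.33 between the parental lines and from −0.04 to −0.25 with Lmo2. Calls then went from 4883 higher and 6665 lower to 2949 and 15644 in the first, and from 6533 and 8372 to 4054 and 12446 in the second. It turned Stat6 (−0.037), Myc (−0.011) and Cish (−0.22) in the parental comparison, Csf2rb (−0.12) and Ifngr2 (−0.068) with Lmo2, Il2rg (0.0059) between empty vector and untransduced cells, and Csf2rb (0.050) between Lmo2 cells and pro-B(+). Quantile normalization turned Ptpn11 with Lmo2 (0.076) and Csf2rb against pro-B(+) (0.011), which the mean of its probes also turned (0.084). Normexp turned Csf2 with Lmo2 (0.071) and gave Il2ra 0.66 between the parental lines and 4.45 with Lmo2, which were its lowest values. With an array left out, the parental differences of Flt3l (−0.078 to 0.036) and Gab2 (−0.38 to 0.21) and the Il7r difference between Lmo2 cells and pro-B(+) (−0.11 to 0.17) spanned 0. Flt3l and Gab2 turned without pro-B(+) replicate 1 and Il7r without pro-B(+) replicate 2. The cause was not tested. Signals near background, as for Il2ra outside 2 groups, give bounds alone.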
